A study of Rattus norvegicus with 18 samples.

Results

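The nucleus accumbens of rats bred for high ethanol preference (WHP) was compared with that of rats bred for low ethanol preference (WLP), over 6 of the 18 two-colour arrays of the series, chosen by the brain area given in their labels. Each of the 6 arrays held RNA of 1 WHP pool in 1 dye and of 1 WLP pool in the other, and each pool combined equal RNA from 3 male rats. The 3 pairs of pools were each measured on 2 arrays with the dyes exchanged, so that n = 3 pool pairs. The other 12 arrays held the prefrontal medial cortex (6 arrays) and the hippocampus (6 arrays) of the same strains. Rats of both strains were males that had never received alcohol and were housed with their brothers. The strains therefore differ by breeding and not by exposure, and pooling hides differences between single rats. The age of the rats was not given in the sources used here.

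The nucleus accumbens is the ventral part of the striatum. Most of its neurons are GABA-releasing projection neurons that receive dopamine from the midbrain and glutamate from cortex, hippocampus and amygdala, and that carry either the D1 or the D2 dopamine receptor. Their identity is kept by transcription factors such as Foxp1 and Meis2, and their response to dopamine runs largely through cyclic AMP. The area is known for its part in reward and in the intake of alcohol and other drugs.

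Ratios are given as log2 of WHP over WLP, so that 1 unit is a 2-fold difference and values above 0 stand for a higher signal in WHP. Levels are log2 spot intensities after normalization within and then between arrays. They may be compared between pools for 1 probe, not between probes. Errors of fitted ratios are moderated standard errors (SE). Unless said otherwise, they and the p-values rest on a common variance over the 9 pool pairs of all areas. They do not measure the spread of the nucleus accumbens pool pairs alone. The n = 3 beside a test counts the nucleus accumbens pool pairs behind the ratio, not those behind its error. An offset of 50 was added to both channels, which pulls the ratios of dim probes towards 0.

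The label of the tissue was checked first. The 23 measured striatal neuron markers lay between 2.03 and 2.66 log2 units above the array median on the 6 nucleus accumbens arrays, against 0.71 to 0.96 in the hippocampus. On the arrays labelled prefrontal medial cortex the same markers lay between 1.96 and 2.46, which overlaps the nucleus accumbens. Cortical excitatory neuron markers (12 genes) lay between -0.02 and 0.37 in the nucleus accumbens and between 1.83 and 2.19 in the prefrontal medial cortex. Markers of the neighbouring septum, thalamus and hypothalamus (17 genes) had a median of 1.71 in the nucleus accumbens, 0.89 in the prefrontal medial cortex and 0.44 in the hippocampus. The defining receptors Drd1 and Drd2 were well above background in both strains on all 6 arrays.

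Among the nucleus accumbens arrays, those of pool pair 3 stood apart. The log2 ratios of the 2 dye-swapped arrays correlated across probes at 0.59 in pool pair 1 and 0.70 in pool pair 2, but at 0.04 in pool pair 3. The array of pool pair 3 with WHP in Cy3 had ratios with an SD of 0.46, against 0.23 to 0.30 on the other 5 arrays. Across probes, which are not independent replicates, the ratios of different pool pairs correlated at 0.09 to 0.17. Median spot signals were 78.2 to 100.4 in green and 161 to 186 in red, and spots well above background numbered 29175 to 31889 in the green channel, 32869 to 34446 in the other.

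At an adjusted p under 0.05 by limma, 76 probes passed out of 30217 detected, which is 0.252%. Of these, 41 were higher in WHP (0.136%) and 35 lower (0.116%), and each had 1 sign in all 3 pool pairs. With median centring in place of loess, 19 probes were higher and 10 lower. Of 13001 genes named through their brightest probe, 27 passed (0.208%), 8 of them higher (0.0615%) and 19 lower (0.146%). At an unadjusted p under 0.05, 7.32% of probes were higher and 8.98% lower, and among the genes 960 (7.38%) and 1107 (8.51%). All 3 pool pairs were positive for 14.2% of probes and 14.6% of genes, and negative for 15.0% and 14.7%. The median size of the 76 ratios was 0.59, against 0.07 over all detected probes. The median SD between pool pairs was 0.10 for the 76 and 0.13 over all. Without pool pair 1, 2 or 3 the count of probes was 725, 132 or 23, and without pool pair 1 it split into 204 higher and 521 lower. Without pool pair 3, Tac4, Or5b123b, Cpne5 and Rpl38 were the genes of the 27 that passed. With the slide as a block, over the nucleus accumbens and prefrontal arrays that share slides, 1 probe passed, and none of the 27 genes. With the nucleus accumbens fitted alone 3 probes passed, and of the 27 genes only Tac4. With median centring 8 of the 27 genes passed: Grem1, Mx2, Or5b123b, Pla2g12a, Rlbp1, Tac4, Trim16 and Unc5d. Foxp1, Arpp21, Maob, Prim1, Cpne5, Apln and Epb41l3 were among those that did not.

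**Figure D1:**
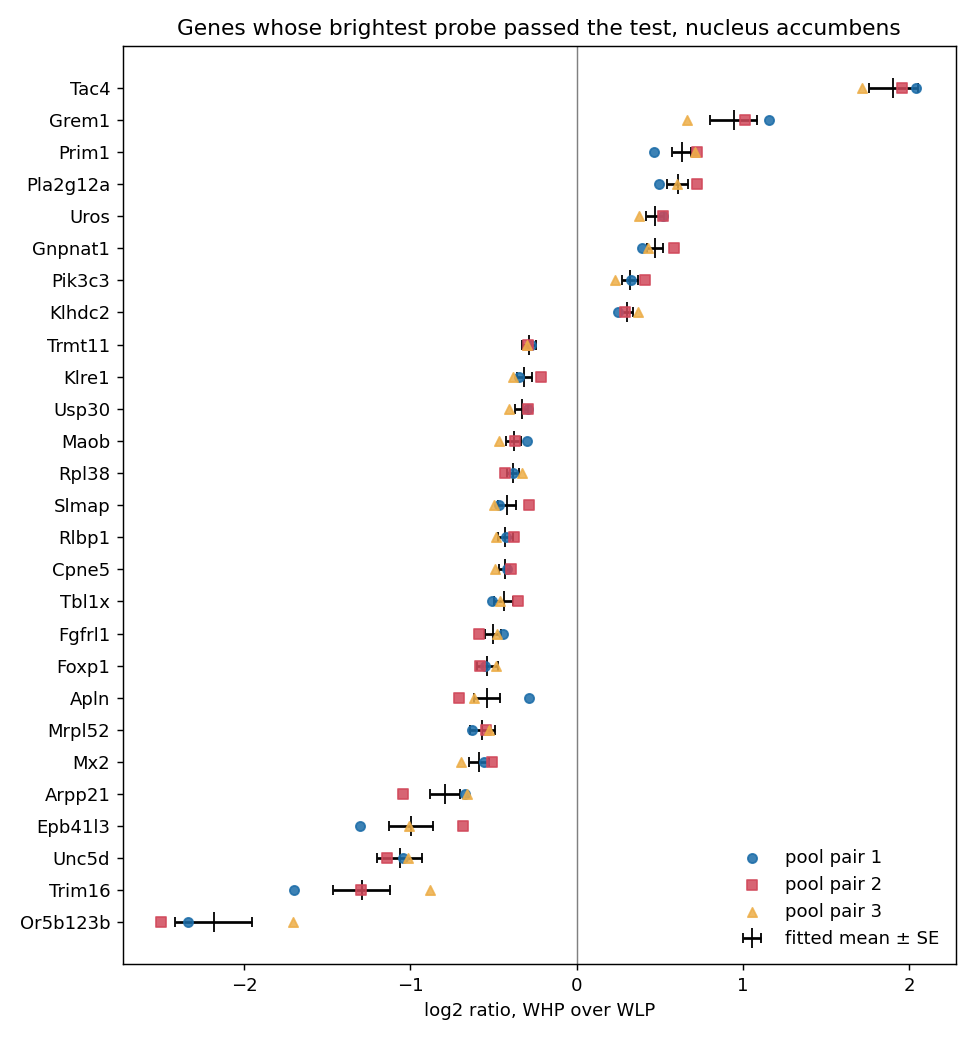
Log2 ratio of WHP over WLP (horizontal axis) of the 27 genes whose brightest probe passed the test, 1 gene per row. Coloured points are the 3 pool pairs and the black tick and bar the fitted mean ± SE; for every gene the 3 points lie on 1 side of 0, with Tac4 at 1.90 and Or5b123b at -2.18 at the ends.

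Among peptide genes, Tac4 was higher and Apln lower in WHP. Tac4 encodes tachykinin peptides of the hemokinin and endokinin type, which act on neurokinin receptors. Its probe lies on chromosome 10 (rn4) at chr10:83953767-83953826, plus strand, and is shown because it carries the largest positive ratio of a named gene.
Tac4: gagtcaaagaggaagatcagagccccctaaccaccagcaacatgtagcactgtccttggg
The Tac4 level was 9.94, 9.81 and 9.38 in the WHP pools of pairs 1, 2 and 3 and 7.90, 7.86 and 7.67 in the WLP pools. The strains did not overlap. The ratios of 2.04, 1.96 and 1.71 gave a fitted value of 1.90 ± 0.15, a 3.74-fold difference (limma, adjusted p = 0.00388, n = 3).

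Apln encodes apelin, the peptide ligand of the apelin receptor. Its level was 13.21, 12.64 and 12.84 in the WHP pools and 13.50, 13.35 and 13.46 in the WLP pools, again without overlap. The fitted ratio was -0.54 ± 0.08 (limma, adjusted p = 0.0466, n = 3), with pool pair 1 at -0.29 and the others at -0.71 and -0.62. A second Apln probe stood at -0.43 ± 0.07 (limma, adjusted p = 0.0569). Of 18 measured neuropeptide genes these 2 passed, 1 in each direction, while 0.208% of all genes passed. The median of the list was 0.05, against 0.01 over all genes. This and the other gene lists were written with earlier results of these data known. Counts of their passing members can therefore not be weighed against that share. Crh, the stress peptide corticotropin-releasing hormone, stood at 0.32 ± 0.07 (limma, adjusted p = 0.121) and neuropeptide Y (Npy) at -0.24 ± 0.06 (limma, adjusted p = 0.155). The opioid peptide gene Pdyn stood at -0.40 ± 0.23, with -0.92 in pool pair 2 and 0.07 in pool pair 3. None of the 8 opioid peptide and receptor genes passed.

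Of the markers of striatal projection neurons, Foxp1 was lower in WHP and no other passed by its brightest probe. Foxp1 is a forkhead transcription factor of these neurons. Its probe lies at chr4:133773452-133773511 (rn4), minus strand, and is shown because Foxp1 was the striatal marker that passed.
Foxp1: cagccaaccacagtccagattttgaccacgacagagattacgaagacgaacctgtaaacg
The Foxp1 level was 13.12, 12.83 and 13.08 in the WHP pools and 13.68, 13.41 and 13.56 in the WLP pools, so every WHP pool lay below every WLP pool. The fitted ratio was -0.54 ± 0.06, a 1.45-fold difference (limma, adjusted p = 0.0202, n = 3). A probe of the same strand 2825 bases away (AA943125, named after its value was seen) stood at -0.51 ± 0.07 (limma, adjusted p = 0.0446). The nearest detected probe, FQ193146, 2027 bases away on the same strand and also named after its value was seen, did not pass, at -0.35 ± 0.10 (limma, adjusted p = 0.18). The unnamed probe TC597957, 2551 bases away on the opposite strand, stood at -1.06 ± 0.15 (limma, adjusted p = 0.0412). On the arrays of pool pair 3 it stood at -2.53 with WHP in Cy3 and at -0.47 with WHP in Cy5. In the prefrontal medial cortex it stood at -0.54 and in the hippocampus at -0.66, where Foxp1 stood at 0.02 and -0.12.

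Meis2, a homeobox factor of striatal neurons, passed through the dimmer of its 2 probes. Its level there was 11.06, 10.57 and 10.86 in WHP and 11.74, 11.32 and 11.58 in WLP, without overlap, and the ratio was -0.72 ± 0.06 (limma, adjusted p = 0.00821, n = 3). The brighter probe, 622 bases away on the same strand, stood at -0.42 ± 0.09 (limma, adjusted p = 0.113). Arpp21, a phosphoprotein that protein kinase A modifies after dopamine receptor activation, was lower in WHP. Its level was 14.88, 13.69 and 14.71 in WHP and 15.55, 14.74 and 15.37 in WLP. The ranges of the strains overlap, because both pools of pair 2 were low, while the ratio was negative within each pair (-0.67, -1.05 and -0.66). The fitted ratio was -0.79 ± 0.09 (limma, adjusted p = 0.019, n = 3). Other probes of Arpp21 stood at -0.12 ± 0.14 and 0.06 ± 0.16 and did not pass.

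Of the 23 striatal neuron markers, 20 had a negative and 3 a positive ratio, while 6213 of all 13001 genes were negative. Foxp1 alone passed, and 10 were negative in all 3 pool pairs, while 14.7% of all genes were. The median of the list was -0.40, and its median was -0.23, -0.58 and -0.06 in pool pairs 1, 2 and 3. Adenylyl cyclase Adcy5, the main cyclase of these neurons, stood at -0.56 ± 0.11 (limma, adjusted p = 0.088). The small GTPase Rasd2 stood at -0.68 ± 0.15 and the phosphatase Ptpn5 at -0.42 ± 0.09, and neither passed. The mean level of the list above the array median was 2.53, 1.75 and 2.32 in the WHP pools and 2.76, 2.39 and 2.39 in the WLP pools. In RNA of a whole tissue, fewer cells of a type and less RNA per cell cannot be told apart. The part of this shift of the whole list in the values of Foxp1, Meis2 and Arpp21 was not tested. The D1 neuron markers (9 genes, median -0.08) and the D2 neuron markers (9 genes, median -0.09) held no gene that passed.

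**Figure D2:**
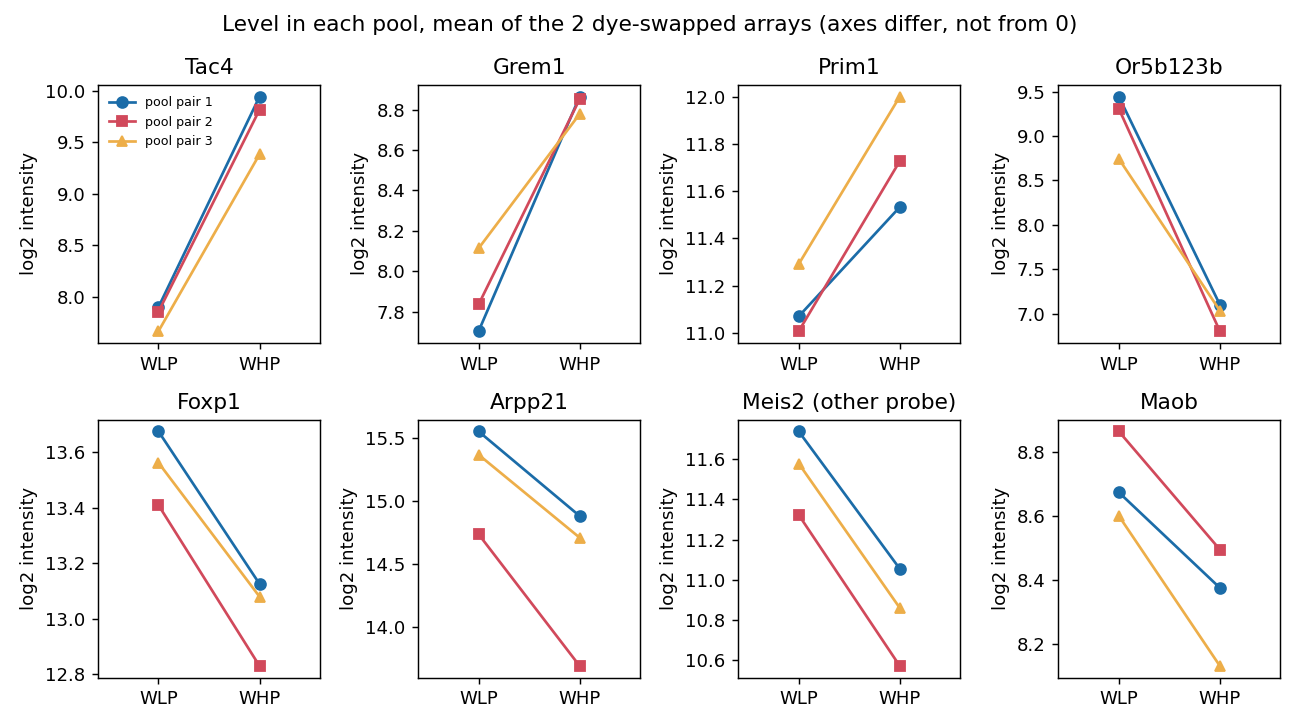
Level of 8 genes in each pool (vertical axis, log2 intensity, mean of the 2 dye-swapped arrays, with a separate range in each panel), WLP left and WHP right. Each line joins the pools of 1 pair; all lines rise for Tac4, Grem1 and Prim1 and fall for Or5b123b, Foxp1, Arpp21, Meis2 (its dimmer probe) and Maob.

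Of the dopamine genes, Maob passed. It encodes monoamine oxidase B, an enzyme of the mitochondrial outer membrane, abundant in astrocytes, that breaks down dopamine and other amines. The Maob level was 8.38, 8.50 and 8.13 in the WHP pools and 8.67, 8.87 and 8.60 in the WLP pools, without overlap. The fitted ratio was -0.38 ± 0.04, a 1.30-fold difference (limma, adjusted p = 0.0196, n = 3). On single arrays it ran from -0.88 to -0.06, both on pool pair 3. Its relative Maoa stood at -0.16 ± 0.06 (limma, adjusted p = 0.256) and the receptor Drd2 at -0.19 ± 0.06 (limma, adjusted p = 0.231). Ppp1r1b, which encodes the dopamine-regulated phosphatase inhibitor DARPP-32, stood at -0.48 ± 0.24, with -1.12 in pool pair 2. Over the 16 dopamine genes, 1 passed and the median was -0.05. Astrocyte markers had 14 of 16 negative ratios, while 6213 of all 13001 genes were negative, and none of the 16 passed. Their median was -0.13 in the nucleus accumbens, -0.16 in the prefrontal medial cortex and 0.03 in the hippocampus. Maob stood at -0.38, -0.10 and 0.03 in the same areas. The part of these markers in the Maob value was not tested.

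No gene of the lists of synaptic transmission passed. Of 22 GABA genes 19 had a negative ratio (median -0.09), among them the receptor subunit Gabra4 at -0.75 ± 0.17 (limma, adjusted p = 0.121). Of 35 glutamate receptor and transporter genes 27 were negative (median -0.08). There the NMDA receptor subunit Grin2c stood closest to the threshold, at -0.42 ± 0.07 (limma, adjusted p = 0.062), with -0.42, -0.41 and -0.42 in the 3 pool pairs. Of 24 genes of vesicle release 18 were negative (median -0.07), while Rab3a, a GTPase of synaptic vesicles, stood at 0.28 ± 0.05 (limma, adjusted p = 0.0741). Of 30 potassium channel genes 17 were negative and 13 positive, with the A-type channel Kcnd2 at -0.36 ± 0.06 (limma, adjusted p = 0.0581). The 27 receptors for serotonin, noradrenaline and acetylcholine had a median of -0.01.

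Immediate early genes, which neurons switch on with activity, had 17 of 20 negative ratios and a median of -0.21, and none passed. Their spread between pools was wide: Arc stood at 0.00, -1.76 and -0.85 in pool pairs 1, 2 and 3 and Nr4a1 at -0.19, -1.07 and -0.66. The 12 stress hormone genes (median -0.02) and the 11 genes of ethanol and acetaldehyde metabolism (median -0.06) held no gene that passed. In the latter, the mitochondrial acetaldehyde dehydrogenase Aldh2 stood at -0.26 ± 0.11 and catalase (Cat), which can oxidise ethanol in brain, at -0.24 ± 0.13.

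Among genes of secreted, membrane or membrane-associated proteins, Grem1 was higher and Unc5d, Epb41l3, Fgfrl1, Cpne5 and Slmap were lower in WHP. Grem1 encodes gremlin, a secreted antagonist of bone morphogenetic proteins. Its level was 8.86, 8.85 and 8.78 in WHP and 7.70, 7.84 and 8.11 in WLP, without overlap, and the fitted ratio was 0.95 ± 0.14 (limma, adjusted p = 0.048, n = 3). A second Grem1 probe stood at 0.28 ± 0.07 (limma, adjusted p = 0.155). Meningeal and fibroblast markers were uneven between the same pools: all 18 had a positive fitted ratio, but their median was 1.03, 2.19 and -0.87 in pool pairs 1, 2 and 3, where Grem1 stood at 1.16, 1.02 and 0.66. The part of these markers in the Grem1 value was not tested.

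Unc5d is a netrin receptor. Its level was 9.24, 9.17 and 9.10 in WHP and 10.29, 10.31 and 10.11 in WLP, and the ratio was -1.07 ± 0.14 (limma, adjusted p = 0.027, n = 3). The strains were far apart at this probe, while a second probe of the gene stood at -0.07 ± 0.05 (limma, adjusted p = 0.559). Over 29 axon guidance genes, Unc5d was the only one that passed, and the median was -0.03. Epb41l3, a membrane skeleton protein of neurons and myelinated axons, had levels of 13.63, 13.79 and 13.41 in WHP and 14.93, 14.47 and 14.42 in WLP, with a ratio of -0.998 ± 0.133 (limma, adjusted p = 0.0329, n = 3). Fgfrl1, an FGF receptor without a kinase domain, stood at -0.50 ± 0.05 (limma, adjusted p = 0.0118). Cpne5, a calcium-dependent phospholipid-binding protein, stood at -0.43 ± 0.03 (limma, adjusted p = 0.00431) with -0.42, -0.39 and -0.49 in the pool pairs. Slmap, a tail-anchored membrane protein, stood at -0.42 ± 0.05 (limma, adjusted p = 0.0275).

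Prim1, Pla2g12a, Uros, Gnpnat1, Pik3c3 and Klhdc2 were higher in WHP. Prim1, the catalytic subunit of DNA primase, passed with both of its probes, which lie 1030 bases apart. The brighter one, at chr7:1321717-1321776 (rn4, plus strand), is shown because separate sequences of 1 gene gave the same direction.
Prim1, brighter probe: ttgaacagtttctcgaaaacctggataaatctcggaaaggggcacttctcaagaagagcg
The level at the brighter probe was 11.53, 11.73 and 12.002 in the WHP pools and 11.07, 11.01 and 11.29 in the WLP pools, without overlap. The ratios of the probes were 0.63 ± 0.06 (limma, adjusted p = 0.00821, n = 3) and 0.87 ± 0.06 (limma, adjusted p = 0.00288, n = 3). The partner subunit Prim2 stood at 0.02 ± 0.06 and the polymerase subunit Pola1 at -0.19 ± 0.04 (limma, adjusted p = 0.118).

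Pla2g12a, a secreted phospholipase A2, had levels of 12.51, 12.37 and 12.51 in WHP and 12.02, 11.65 and 11.90 in WLP, with a ratio of 0.61 ± 0.06 (limma, adjusted p = 0.0118, n = 3). Uros, uroporphyrinogen-III synthase of the haem pathway, stood at 0.47 ± 0.05 (limma, adjusted p = 0.0184), and the unnamed probe TC597993, 4066 bases away on the same strand, at 1.29 ± 0.10 (limma, adjusted p = 0.00388). Of the 11 haem synthesis genes Uros alone passed, and the median was 0.05. Gnpnat1, an enzyme of UDP-N-acetylglucosamine synthesis, stood at 0.47 ± 0.05 (limma, adjusted p = 0.0118). Pik3c3, the lipid kinase of endosomes and autophagy, stood at 0.32 ± 0.05 (limma, adjusted p = 0.0476), and Klhdc2, a substrate receptor of a ubiquitin ligase, at 0.30 ± 0.04 (limma, adjusted p = 0.0257).

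On the lower side, Tbl1x, part of a nuclear corepressor complex, stood at -0.44 ± 0.06 (limma, adjusted p = 0.0257), and its second probe at -0.44 ± 0.08 (limma, adjusted p = 0.0741). Rlbp1, a retinaldehyde-binding protein known from the retina, stood at -0.43 ± 0.04 (limma, adjusted p = 0.0119). For Rlbp1 the scanner's processed signals gave -0.98 (limma, adjusted p = 0.117) and the authors' deposited table -0.84. Usp30, a mitochondrial deubiquitinase, stood at -0.33 ± 0.04 (limma, adjusted p = 0.0173), and Trmt11, of a tRNA methyltransferase, at -0.29 ± 0.04 (limma, adjusted p = 0.0425). A second Trmt11 probe did not pass, at -0.15 (limma, adjusted p = 0.22). A dimmer probe of the clock-related repressor Bhlhe41 passed at -0.46 ± 0.06 (limma, adjusted p = 0.0412), while its brighter probe stood at -0.02 ± 0.10.

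Of the immune genes, Mx2 and Klre1 were lower in WHP. Mx2, an interferon-induced GTPase, had levels of 7.16, 7.17 and 7.22 in WHP and 7.71, 7.68 and 7.92 in WLP, with a ratio of -0.59 ± 0.06 (limma, adjusted p = 0.0121, n = 3). Most of its list had the opposite sign: 14 of 18 interferon-induced genes had a positive ratio (median 0.10), and Mx2 alone passed. The transcription factor Irf7 stood at 0.43 ± 0.10 (limma, adjusted p = 0.14). Of 16 genes of antigen presentation 13 were positive (median 0.17) and none passed. Klre1, a receptor of natural killer cells, was not well above background on any of the 6 arrays in WHP and was so on 5 in WLP. It thus entered the test through WLP alone, and it was left untested where both strains had to be above background. It was at least 1.20-fold lower in WHP, counted against the lowest signal above background on each array (limma, adjusted p = 0.0419). Trim16, a ubiquitin ligase, stood at -1.29 ± 0.17 (limma, adjusted p = 0.0329, n = 3), with -1.70, -1.30 and -0.88 in the pool pairs. A second Trim16 probe, 1987 bases away on the same strand, stood at -0.03 ± 0.14.

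**Figure D3:**
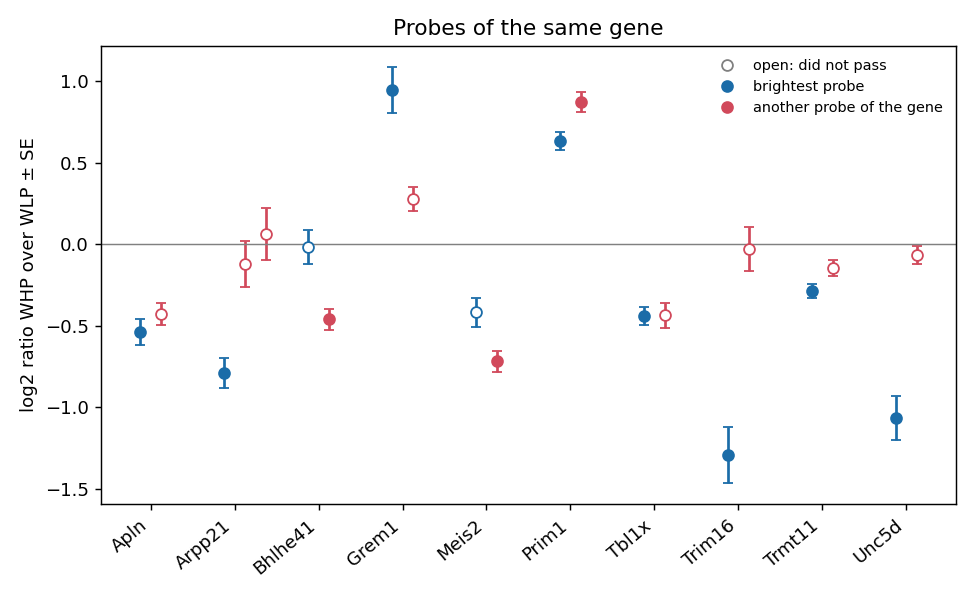
Fitted log2 ratio ± SE (vertical axis) of the detected probes of 10 genes that have more than 1. Blue is the brightest probe and red another one, filled where the test was passed; the probes of Prim1, Apln, Tbl1x and Meis2 lie on 1 side of 0 and near each other, while second probes of Trim16 and Unc5d lie near 0.

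Ratios of ribosomal protein genes were mostly small. Rpl38, of the large cytosolic subunit, had levels of 15.30, 15.34 and 15.44 in WHP and 15.68, 15.77 and 15.77 in WLP, with a ratio of -0.38 ± 0.04 (limma, adjusted p = 0.0116, n = 3). It was the only one of 76 cytosolic ribosomal genes that passed. Over the processing settings its ratio ran from -0.38 to -0.17. Rpl38 did not pass with median centring in place of loess, on the scanner's signals or in the deposited table. In that list 52 ratios were negative, and the median was -0.05. Mrpl52, of the mitochondrial ribosome, stood at -0.57 ± 0.08 (limma, adjusted p = 0.0329), with -0.63, -0.55 and -0.53 in the pool pairs. Of its list 54 of 68 ratios were positive, with a median of 0.09 overall and of 0.14, -0.06 and 0.12 in pool pairs 1, 2 and 3. Nuclear genes of the respiratory chain and ATP synthase (41 genes, median 0.02) and of cholesterol synthesis (21 genes, median 0.03) held none that passed.

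Or5b123b had the largest negative ratio. It is annotated as an olfactory receptor gene, and its probe lies at chr1:216310307-216310366 (rn4), plus strand.
Or5b123b: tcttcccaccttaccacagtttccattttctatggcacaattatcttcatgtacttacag
The level was 7.10, 6.80 and 7.04 in the WHP pools and 9.44, 9.31 and 8.74 in the WLP pools, with the WHP pools near the dim end of the array and no overlap. The fitted ratio was -2.18 ± 0.23, a 4.54-fold difference (limma, adjusted p = 0.0129, n = 3). Of 272 detected olfactory receptor genes it was the only one that passed, and the next lowest ratio was -0.31. With the scanner's own processed signals the ratio was -3.51.

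Of the 76 probes, 46 had no gene name in the tables used. The largest ratio of all was at a probe for the transcript Y17323, described in the files only as CDK109 mRNA. Its first 33 bases are the last 33 of another probe for the same transcript, which the files place on the mitochondrial genome at chrM:1530-1589 (rn4, plus strand). Both are shown, with the shared bases in capitals, because they gave different ratios.
Y17323, probe without a position: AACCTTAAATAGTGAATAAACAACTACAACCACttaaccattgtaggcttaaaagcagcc
Y17323, overlapping probe: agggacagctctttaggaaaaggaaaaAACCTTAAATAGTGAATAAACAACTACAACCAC
The first probe stood at 3.12, 3.24 and 2.58 in the pool pairs, with a fitted ratio of 2.98 ± 0.13, a 7.89-fold difference (limma, adjusted p = 0.000154, n = 3). The overlapping probe stood at -0.38, 0.37 and -0.43, with a fitted ratio of -0.14 ± 0.15 (limma, adjusted p = 0.661). Another Y17323 probe (chrM:1289-1348) stood at -0.95, -0.17 and -0.83, with a fitted ratio of -0.65 ± 0.14 (limma, adjusted p = 0.118). The unnamed probe with the largest negative ratio was CN541679, at -1.21 ± 0.12 (limma, adjusted p = 0.0118).

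Of 44 detected probes that the files place on the mitochondrial genome, 5 passed, 4 higher and 1 lower, while 0.252% of all detected probes passed. The median of the 44 was -0.12. The 2 passing probes of cytochrome c oxidase subunit 2, a core protein of the respiratory chain, stood at 0.83 ± 0.09 and 0.84 ± 0.08. The other 6 probes of that transcript stood between -0.41 and -0.15. A passing probe (chrM:7366-7425, rn4, plus strand) and its neighbour (chrM:7326-7385) are shown with their 20 shared bases in capitals.
COX2, probe that passed: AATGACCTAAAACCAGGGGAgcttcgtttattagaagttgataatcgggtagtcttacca
COX2, neighbouring probe: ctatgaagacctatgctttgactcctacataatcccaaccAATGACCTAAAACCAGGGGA
The first stood at 0.81, 1.09 and 0.60 in the pool pairs (limma, adjusted p = 0.0162, n = 3) and the second at -0.32, 0.15 and -0.30 (limma, adjusted p = 0.483). Ratios of neighbouring probes of 1 transcript thus had opposite signs in pool pairs 1 and 3. The mitochondrial probes were chosen after their values were seen, and several belong to the same transcript. The count of 5 can therefore not be weighed against the share over all probes.

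Markers of other cell types were measured beside these results. Relative to the array median, the mean log2 level of meningeal and fibroblast markers was 1.69, 2.95 and 1.59 in the WHP pools and 0.68, 0.78 and 2.29 in the WLP pools. Among them, decorin (Dcn) stood at 1.00, 1.86 and -0.28 in the pool pairs, Aldh1a2 at 1.14, 1.86 and -0.22 and Col6a1 at 0.64, 1.26 and -0.24. Oligodendrocyte and myelin markers (18 genes) had medians of -0.26, 0.16 and -0.30 in pool pairs 1, 2 and 3, and microglia markers (14 genes) of -0.32, 0.07 and -0.12. Ependymal and choroid plexus markers (12 genes) had medians of 0.53, 0.01 and -0.27. The 12 cortical neuron markers had medians of 0.35, -0.49 and -0.11. None of the 12 marker lists of other cells held a gene that passed, and what these shifts contribute to single genes was not tested.

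**Figure D4:**
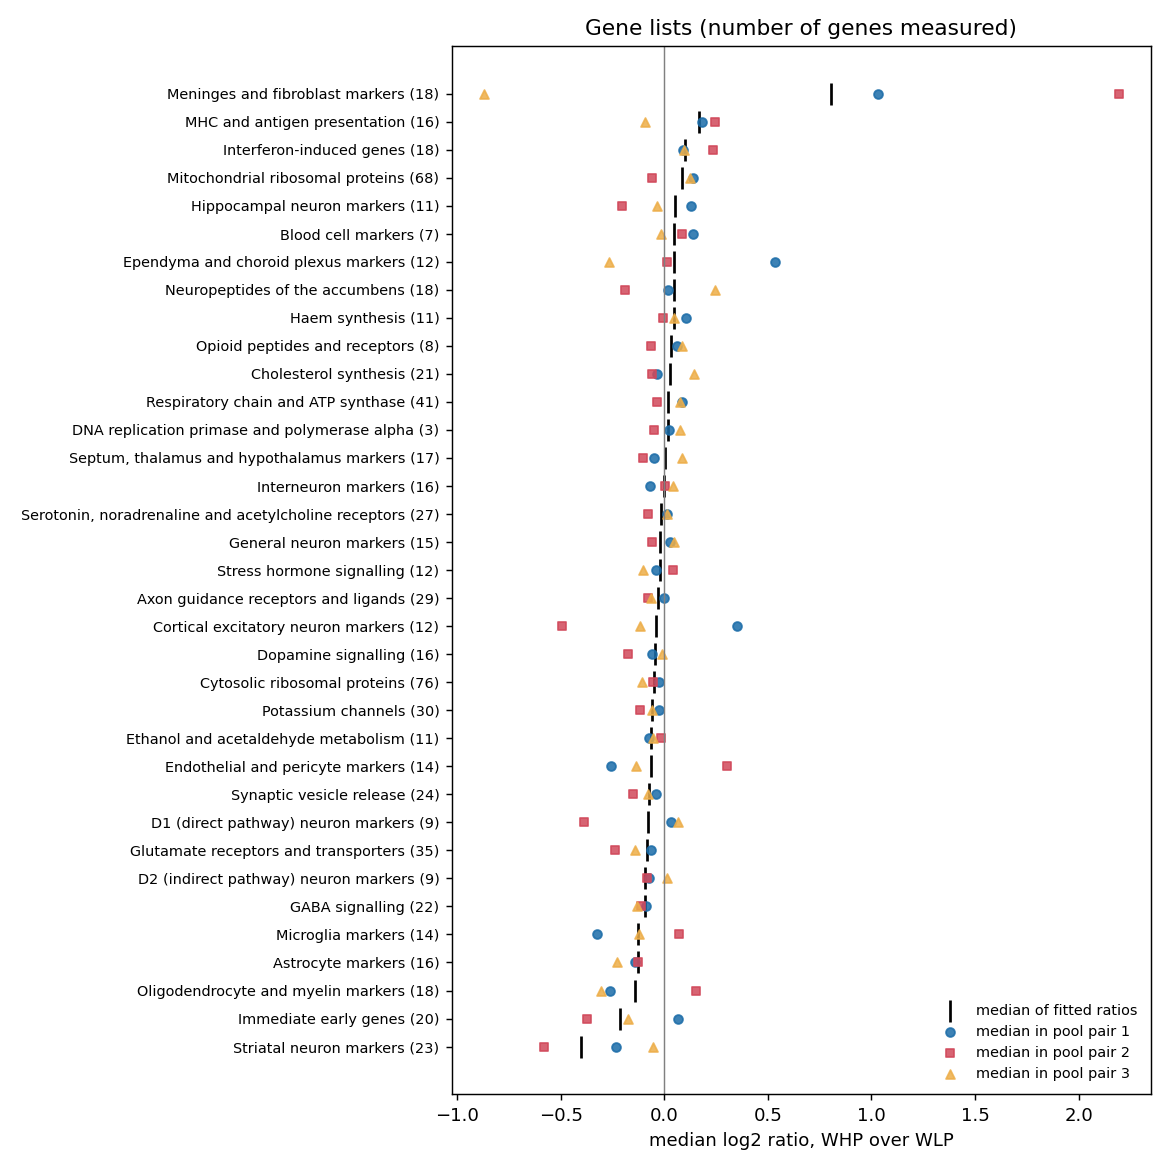
Median log2 ratio of WHP over WLP (horizontal axis) of each gene list, with the number of genes measured in brackets. The black tick is the median of the fitted ratios and the coloured points the medians in the 3 pool pairs; striatal neuron markers lie lowest at -0.40, and the meningeal markers range from -0.87 to 2.19 between pool pairs.

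The ratios of the nucleus accumbens were then set against those of the other areas. No probe of 28377 detected in all 3 areas passed for the nucleus accumbens minus the mean of the others (limma, 0%, lowest adjusted p = 0.734), with 1869 probes (6.59%) at an unadjusted p under 0.05. Against the prefrontal medial cortex or the hippocampus alone the count was also 0 (limma, with 942, or 3.32%, and 2520, or 8.88%, at an unadjusted p under 0.05). Without pool pair 1 or 2 of the nucleus accumbens 6 and 2 probes passed, and without prefrontal pool pair 1, 1 did. Of the 76 probes, 68 had the same sign in both other areas, against 37.1% of all detected probes. The sources used here do not give whether the areas were taken from the same animals.

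Some genes had close ratios in all areas. Prim1 stood at 0.63 ± 0.06 in the nucleus accumbens, 0.65 ± 0.06 in the prefrontal medial cortex and 0.53 ± 0.06 in the hippocampus, and Pla2g12a at 0.61, 0.61 and 0.59. Tac4 stood at 1.90, 1.92 and 1.40, with the hippocampus 0.50 below the nucleus accumbens (limma, unadjusted p = 0.0413, adjusted p = 0.56). The genes with the smallest p-values for a lower ratio in the nucleus accumbens were Rlbp1, Maob, Foxp1, Trmt11 and Arpp21. Foxp1 stood at -0.54 ± 0.06 in the nucleus accumbens, 0.02 ± 0.06 in the prefrontal medial cortex and -0.12 ± 0.06 in the hippocampus, a difference of -0.49 ± 0.08 from their mean (limma, adjusted p = 0.734). Maob differed by -0.34 ± 0.05, Rlbp1 by -0.35 ± 0.05 and Arpp21 by -0.60 ± 0.11, with the same adjusted p. On the positive side these genes were Qrfpr, Crtac1, Chac1, Cited2 and Ifi27l2b. Qrfpr, the receptor of the peptide QRFP, stood at 0.51 in the nucleus accumbens, -0.22 in the prefrontal medial cortex and -0.17 in the hippocampus. None of these differences passed, so none of the 27 genes was shown to differ between areas.

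**Figure D5:**
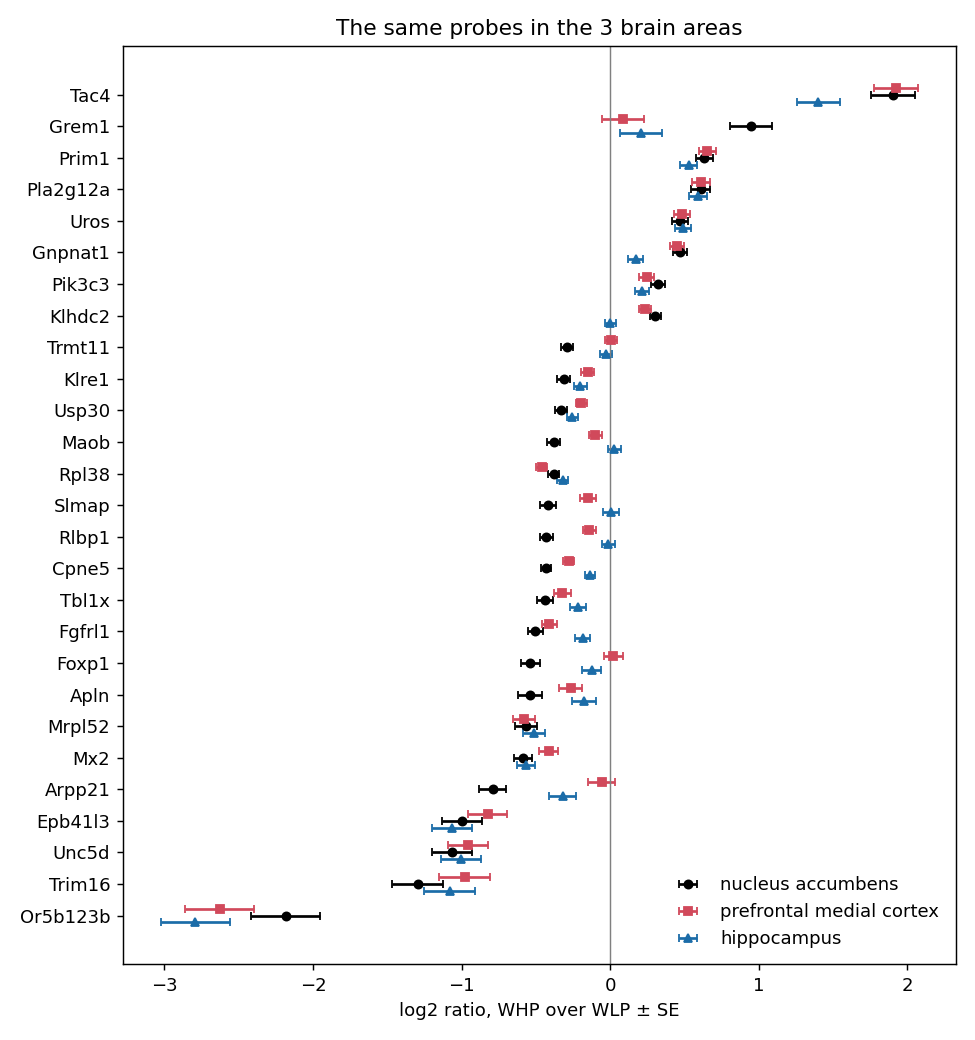
Log2 ratio of WHP over WLP ± SE (horizontal axis) of the 27 genes in the nucleus accumbens (black circles), the prefrontal medial cortex (red squares) and the hippocampus (blue triangles). Prim1, Pla2g12a and Uros nearly coincide in the 3 areas, while Foxp1 and Arpp21 lie further below 0 in the nucleus accumbens than in the prefrontal medial cortex; no difference between areas passed the test.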

How the data were processed

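The authors deposited scanner output, per the file headers from Agilent Feature Extraction: mean spot intensity and median local background intensity in each channel, as scanned, with no background or dye correction. Per the labels, they also deposited a table of log2 ratios per probe, whose normalization is unstated. Its sign matched WHP over WLP on each nucleus accumbens array, and it correlated with the scanner's ratios at 0.955 to 0.981.

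Signals were background-corrected (normexp, offset 50) and loess-normalized within arrays with limma 3.58.1 in R 4.3.3, with control spots at weight 0 and non-uniform spots removed. For the levels, the mean intensities of the 2 channels were also quantile-normalized between arrays, which leaves the ratios as they were. The labelled dyes gave each ratio its direction. Replicate spots and then the 2 dye-swapped arrays were averaged. Probes were detected when well above background in 1 strain on at least 4 of 6 arrays. lmFit and eBayes used the 9 pool pairs of all areas with 1 coefficient per area and a common variance (residual degrees of freedom 6, prior 2.46). The tests are two-sided, with Benjamini-Hochberg adjustment over detected probes and a threshold of 0.05. The labels call the pool pairs biological replicates, and their number limits the precision. The step was tested on simulated pool pair ratios with independent noise for each probe. The simulation held no faults of single arrays and no shifts shared between genes, so it does not bear on those.

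Probes were named through a RefSeq gene table (GRCr8) or the file's symbol, which left 19590 of 41012 unnamed, and coordinates are those of the files (rn4). No rn4 gene models were used, so exon or UTR position is not given. Each gene is represented by its brightest detected probe. Named are genes that passed with 1 sign in 3 pool pairs (up to 20 per direction), of each list up to 4 that passed and 4 others with the smallest p, the 5 smallest p per direction for the difference between areas, other probes of passing genes, and at most 2 unnamed probes per direction. Exceptions are said where they stand. The comparison, the lists and the tests were chosen with earlier results of these data known. Slides 1 to 3 each hold the nucleus accumbens and prefrontal arrays of 1 pool pair number, and strain is compared within each array. Alternatives were other background and normalization settings, the scanner's processed intensities, the deposited log2 table, other filters, blocks and left-out pool pairs. A fit without pool pairs whose dye-swapped arrays correlate under 0.1, and one without the array of pool pair 3 with WHP in Cy3, were chosen after seeing the data.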

Additional observations from a re-analysis of the deposited data

Results flagged for a closer look

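Among array measures and the 27 passing genes, 3 results had 1 of the 6 nucleus accumbens arrays far from the other 5. About 1 in 20 such groups is expected to look like this by chance. The SD of the log2 ratios was 0.459 on the array of pool pair 3 with WHP in Cy3, against 0.231 to 0.302 on the others. Grem1 stood at 0.304 on the array of pool pair 3 with WHP in Cy5, against 0.932 to 1.193 on the others. Usp30 stood at -0.596 on the array of pool pair 3 with WHP in Cy3, against -0.345 to -0.216 on the others. All 3 lie in pool pair 3, whose dye-swapped arrays correlated least of the 3 nucleus accumbens pairs.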

How the results depend on the processing

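No passing gene changed sign under an alternative. Leaving out 1 pool pair of any area gave 23 to 725 passing probes, and 0 to 6 for the difference between areas. The count of 76 became 3 with the nucleus accumbens fitted alone, 1 with the slide as a block in the first scan session, and 29 with median centring in place of loess. It became 124 and 14 with only the arrays with WHP in Cy5 or in Cy3, 24 with 1 probe per gene (13001 tested) and 116 with trended, robust variances. It was 2 without pool pairs whose dye-swapped arrays correlate under 0.1. These were nucleus accumbens pool pair 3 (0.04) and hippocampus pool pair 2 (-0.003), and both enter the common variance of the main fit. Without the array of nucleus accumbens pool pair 3 with WHP in Cy3 the count was 73, with 1 probe for the difference between areas. The causes were not tested. The replicate number as a block left 11 probes and 0 for the difference between areas. Deviations of pools with the same number correlated at -0.38 to 0.17 between areas, and the labels do not say that a number marks shared animals. The scanner's signals (78), no background subtraction (93), offset 10 (113), non-uniform spots kept (75), the deposited table (76), no filter (57) and the strict filter (82) stayed within 1.5 times of 76, sharing 49 to 75 probes with it. Of the 27 genes, 26, 17 and 4 passed without nucleus accumbens pool pair 1, 2 or 3. With median centring in place of loess 8 passed. None passed with the slide block or without the pool pairs of low dye-swap correlation. Tac4 alone passed with the nucleus accumbens fitted alone, and Cpne5, Prim1, Rlbp1 and Tac4 with the replicate number as a block. On the scanner's signals 8 of the 27 genes moved by over 1.5 times: Klre1 to -2.38, Rlbp1 to -0.98, Uros to 1.13, Trim16 to -2.73, Trmt11 to -0.61, Mx2 to -1.16, Slmap to -0.77 and Or5b123b to -3.51.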

Other observations

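Several passing probes lay close together on the genome, an observation made after their values were seen. Each stretch was drawn from its first to its last passing probe, which raises the share that passed within it. Over all detected probes 0.252% passed. On chromosome 14 (rn4), 4 of 15 detected probes within 136.8 kb passed, all higher in WHP, at 0.66 to 1.11. Several of the 15, passing ones among them, belong to 1 transcript, and some overlap with similar sequences. The probes of that transcript are therefore not separate signals of neighbouring genes. Whether the passing probes of other transcripts in the stretch give separate signals was not tested. On chromosome 4, the Foxp1 probe and 2 others on 1 side of it passed within 2.9 kb, at -0.51 to -1.06, while the nearest detected probe, FQ193146, 2027 bases from Foxp1 on the other side, did not (-0.35, limma, adjusted p = 0.18). On chromosome 1 the passing probes of Uros and TC597993 form the ends of a stretch of 5.0 kb, with no other detected probe between them.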
